A study of Oryza sativa Japonica Group with 15 samples.

Results

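In rice shoot bases, 35 probe sets lay on opposite sides of their starting level in the lower and upper flanks, standing above the level of unturned plants on the lower side and below it on the upper side after 6 h of gravistimulation. A probe set is the group of short oligonucleotides on the array that reads one transcript. The 35 members, for 32 target transcripts, were found among 57258 probe sets after 123 array controls had been set aside. Members were chosen by their signals at 0 h and 6 h. They needed a mean log2 signal of at least 2 at 0 h, a mean in the 6 h lower flank at least 0.5 above 0 h, a mean in the 6 h upper flank at least 0.5 below 0 h, and all 3 lower arrays above all 3 upper arrays at 6 h. Values are log2 signals with the median of each array set to 0. Of 19750 probe sets that reached the level at 0 h, 1484 lay at least 0.5 above it in the lower flank and 4074 at least 0.5 below it in the upper flank, and 39 did both. The 39 all had separated flank arrays. By rule, genes of Aux/IAA, SAUR, ARF, GH3, PIN, WOX, CML, expansin and UDP-sugar synthesis families were left out, which removed 4 probe sets: the auxin efflux carrier PIN3a (lower flank 0.89, upper flank -0.71, both relative to 0 h), a second PIN carrier at Os01g51780 (1.47 and -1.25), the Aux/IAA gene IAA11 at Os03g43400 (1.23 and -1.20), and an unnamed probe set (1.50 and -1.56) designed on the same sequence cluster as IAA11.

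The 15 Affymetrix rice arrays read total RNA of the shoot base of japonica rice seedlings of 21 days, in 5 groups of 3 replicates. All plants stood in the dark for 16 h first. The 0 h group was taken from upright plants before any stimulation, and the 4 other groups are upper and lower flanks collected 0.5 h or 6 h after plants had been turned by 90° into the horizontal. Each RNA was a pool of many plants, 0 h pools held whole shoot bases and the other pools held cut flanks, and upright plants of the 0.5 h and 6 h times were not analysed here, so a difference from 0 h cannot be told apart from time in the dark, from cutting or from turning.

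A grass shoot laid on its side bends upwards because the cells of its lower flank elongate more than those of the upper flank. Auxin gathers on the lower side, and a lateral gradient of auxin is known to raise auxin-induced transcripts below and lower them above. Besides auxin, the bending of grass shoots is known to involve gibberellin, ethylene and brassinosteroid, loosening of the cell wall, and the supply of osmotically active solutes.

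Since the 0 h and 6 h signals chose the set, they are given as a description without a test. Over the 35 probe sets, the 6 h lower flank was 0.52 to 1.88 above 0 h (median 0.74) and the upper flank was between -1.88 and -0.50 relative to 0 h (median -0.76), all on the log2 scale. The lower minus upper difference ran from 1.08 to 3.21, with a median of 1.62, which is a 2.12-fold to 9.26-fold higher signal in the lower flank (median 3.06-fold). It was 2 or more in 8 probe sets and 3 or more in 2. The part of the flank difference that lay above the 0 h level was 30.1% to 70.6%, with a median of 53.0%. It was the larger part in 20 probe sets and the smaller in 15. The mean of both flanks at 6 h accordingly differed from 0 h by no more than -0.40 to 0.46, with a median of 0.04.

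The arrays of 6 h overlapped those of 0 h in some members. The SD of the 3 arrays was 0.07 to 2.56 at 0 h (median 0.30), 0.08 to 0.90 in the 6 h upper flank (median 0.27) and 0.04 to 0.64 in the 6 h lower flank (median 0.24). In 25 of 35 probe sets all 3 lower arrays at 6 h lay above all 3 arrays of 0 h, an order that 9.14% of 28629 probe sets showed. In 25 all 3 upper arrays lay below all 3 of 0 h, against 23.9% of those probe sets. In 20 both held and in 5 neither did. The order of the flanks at 6 h, which every member had to show, was found in 7.42%. Nothing is read from these shares, since the rule used the same arrays.

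**Figure D1:**
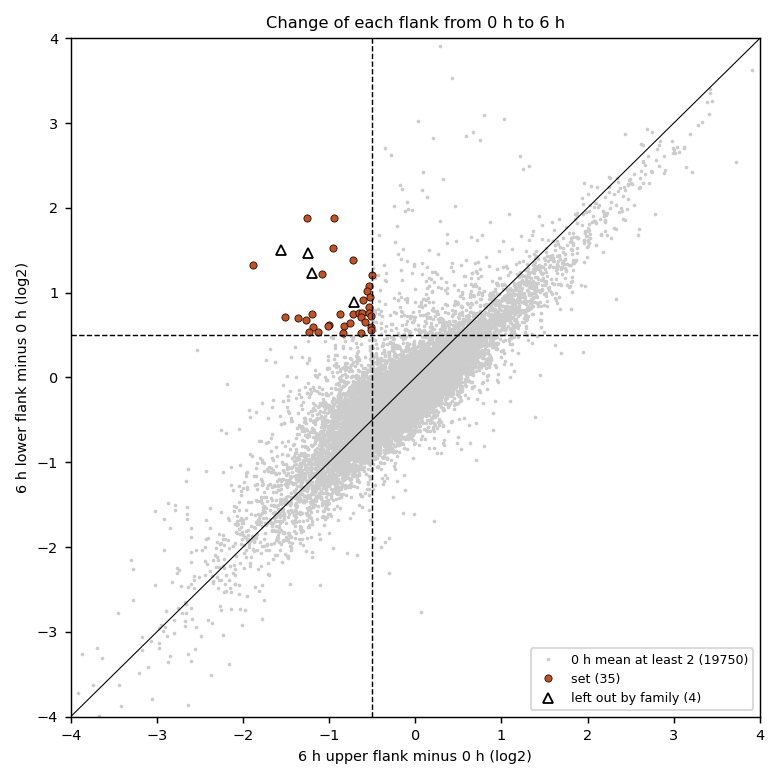
Mean log2 change from 0 h to 6 h in the upper flank (horizontal axis) and in the lower flank (vertical axis) for the 19750 probe sets with a 0 h mean of at least 2, 9 of which lie outside the axes. Orange points are the 35 members and open triangles the 4 left out by gene family, dashed lines are the limits of 0.5 and -0.5, and the solid line marks equal change in both flanks; the members form the sparse corner where 39 of 1484 and 4074 probe sets meet.

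Genes of hormone synthesis and response made up 5 of the 32 targets, on 6 probe sets with flank differences of 1.08 to 2.48 at 6 h. How many such genes the whole array holds was not counted. An ACC oxidase gene, Os09g27750 (LOC4347224), encodes the enzyme of the last step of ethylene synthesis. Its log2 signals were 5.75, 6.03 and 5.99 at 0 h, at 0.5 h 5.48, 5.52 and 5.70 in the upper and 5.47, 5.53 and 5.77 in the lower flank, and at 6 h 5.24, 5.05 and 4.63 in the upper and 7.47, 7.51 and 7.38 in the lower flank. The 3 lower arrays at 6 h were above every other array and the 3 upper arrays at 6 h were below every other array. At 6 h the signal was 7.45 ± 0.06 in the lower and 4.97 ± 0.31 in the upper flank (SD, n = 3), a 5.57-fold difference made of 2.88-fold above and 1.93-fold below 0 h. A second ACC oxidase gene, ACO1, has a probe set of the same design cluster. It was 1.15 above 0 h in the lower flank and -0.15 relative to 0 h in the upper, so only its lower side passed the limit. Whether either probe set also reads the other transcript was not tested.

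FIB (Os01g07500, also TAR2) encodes a tryptophan aminotransferase that makes the indole-3-pyruvate from which auxin is formed, although the locus is described as an alliin lyase in the study's categories. It was the one auxin synthesis gene in the set, since the rule removed auxin response and transport families but not synthesis. FIB measured 4.26 ± 0.15 at 0 h, 3.25 ± 0.30 in the upper and 4.87 ± 0.22 in the lower flank at 6 h (SD, n = 3), 3.08-fold higher in the lower flank. Its upper arrays at 6 h (3.21, 3.57 and 2.96) were below, and its lower arrays (4.69, 5.11 and 4.81) above, all 3 arrays of 0 h (4.14, 4.21 and 4.43). Most of the difference lay on the upper side, at -1.01 against 0.61 on the lower. YUCCA1, whose enzyme turns indole-3-pyruvate into auxin, was below the level limit and stood at 0.02 in the lower and -0.91 in the upper flank relative to 0 h.

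FIP1 (Os04g44500) is listed among abscisic acid responsive genes in the study's categories. Its signals were 4.11, 4.45 and 3.47 at 0 h, at 0.5 h 3.23, 3.38 and 3.74 in the upper and 3.78, 3.86 and 3.49 in the lower flank, and at 6 h 2.44, 3.17 and 4.24 in the upper and 5.21, 5.33 and 5.64 in the lower flank. The lower flank was clear of 0 h on every array, but 1 upper array, at 4.24, lay inside the range of 0 h, and the upper flank had the widest spread at 6 h of all members (3.28 ± 0.90, SD, n = 3). Without replicate 1 of the 6 h upper flank FIP1 no longer met the rule.

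RAB21 (Os11g26790), a dehydrin that accumulates under water shortage and abscisic acid, was in the set through 2 probe sets. They met the rule in only 5 and 3 of the 9 cases in which 1 array of 0 h or 6 h was left out. The first probe set read 2.39, 7.10 and 2.99 at 0 h, so that replicate 2 stood far above the others and set the mean of 4.16 ± 2.56 (SD, n = 3). At 6 h it read 2.65, 2.77 and 3.68 in the upper and 4.51, 4.77 and 4.82 in the lower flank, which are separated from each other by 1.67 but lie on either side of the 0 h mean only through replicate 2. The second probe set read 1.73, 6.34 and 2.47 at 0 h and differed by 1.08 between the flanks at 6 h. Neither met the rule without any 1 of the 3 arrays of 0 h.

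A gene described as the gibberellin receptor GID1L2 (Os09g28690) is counted among the hormone genes by that description alone. It measured 6.50 ± 0.22 at 0 h, 5.86 ± 0.27 in the upper and 7.22 ± 0.10 in the lower flank at 6 h (SD, n = 3). The flanks differed 2.56-fold, and both were clear of 0 h on every array. GID1, the gibberellin receptor of rice, was no member: its probe set stood at 0.27 in the lower and 0.74 in the upper flank relative to 0 h.

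HOX2 (Os06g04870) was the one transcription factor, a homeodomain-leucine zipper protein of class II. It measured 4.24 ± 0.23 at 0 h, 3.41 ± 0.11 in the upper and 4.85 ± 0.28 in the lower flank at 6 h (SD, n = 3), 2.71-fold higher in the lower flank, with both flanks clear of 0 h. Of 8 class II genes looked up after these values had been seen, HOX17 had the most similar 6 h values, 0.52 in the lower and -1.03 in the upper flank relative to 0 h, but on a signal below the array median. HOX1 stood at 0.56 and -0.29, and HOX28 at 1.35 and 0.51. HOX7 went the other way, at 0.04 and 0.63. HOX15, HOX19 and HOX11 differed by only 0.04, -0.07 and 0.14 between the flanks.

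**Figure D2:**
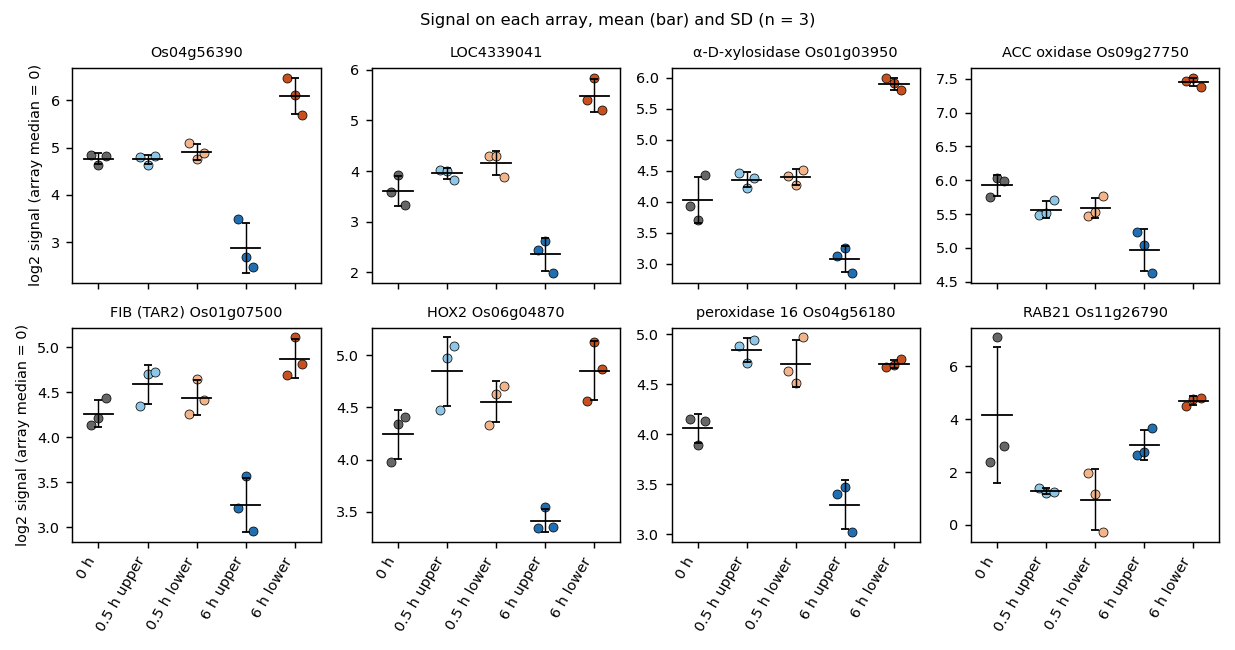
Log2 signal relative to the array median (vertical axis) on each of the 15 arrays for 8 members, by group, with the mean as a bar and the SD of 3 replicates as an error line. In the ACC oxidase gene the 6 h lower flank reached 7.45 and the 6 h upper flank 4.97, on either side of every other array, whereas in RAB21 the 0 h array at 7.10 stands apart from the other 0 h arrays at 2.39 and 2.99.

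The α-D-xylosidase gene Os01g03950 encodes an enzyme that trims xylose from xyloglucan, a polysaccharide that ties cellulose fibrils together in growing walls. Its signals were 3.93, 3.71 and 4.44 at 0 h, at 0.5 h 4.46, 4.23 and 4.38 in the upper and 4.42, 4.26 and 4.51 in the lower flank, and at 6 h 3.13, 3.25 and 2.85 in the upper and 6.00, 5.91 and 5.80 in the lower flank. Both flanks at 6 h were clear of all earlier arrays, and the lower flank was 3.68-fold above and the upper 1.93-fold below 0 h. At 2.83 on the log2 scale the flank difference was exceeded by that of 2 members. A second probe set of this gene read -0.36 at 0 h, below the array median, and stood at -0.15 in the lower and 0.21 in the upper flank.

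Peroxidase 16 (Os04g56180) belongs to the secreted peroxidases that can cross-link or loosen wall polymers. It read 4.06 ± 0.15 at 0 h, 3.30 ± 0.24 in the upper and 4.70 ± 0.04 in the lower flank at 6 h (SD, n = 3), with no overlap among the 3 groups. It was the only member whose mean at 0.5 h stood 0.5 or more above 0 h, by 0.72 over both flanks.

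Secondary metabolism and lipid genes made up 4 members. DXS (Os05g33840, CLA1) encodes the first enzyme of the plastid pathway to isoprenoids, from which gibberellin, abscisic acid, carotenoids and chlorophyll side chains are built. Its signals were 3.05, 3.35 and 3.26 at 0 h, at 0.5 h 3.16, 3.35 and 3.39 in the upper and 2.97, 3.30 and 3.23 in the lower flank, and at 6 h 1.66, 1.83 and 2.62 in the upper and 3.80, 3.91 and 3.73 in the lower flank. The upper flank stood 2.27-fold below and the lower flank 1.51-fold above 0 h, with all arrays apart. Its second probe set gave another picture, with both flanks below 0 h (-0.71 in the lower and -1.67 in the upper) and 0.96 between them.

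The glucosyltransferase Os02g14680, described as acting on hydroquinone, differed 2.79-fold between the flanks but was nearest to the level limit at 0 h (2.07), and its upper arrays overlapped 0 h. A desaturase/cytochrome b5 protein (Os09g16920) differed 2.22-fold, and another probe set of the gene stood at 0.48 in the lower and -0.73 in the upper flank, just short of the limit on the lower side. The GDSL lipase Os01g61570, of a family of lipid hydrolases, differed 2.17-fold, with both flanks clear of 0 h.

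Both kinases are described as receptor kinases, which carry signals from the cell surface. The atypical kinase MARK (Os04g38910) measured 3.11 ± 0.60 at 0 h, 2.24 ± 0.08 in the upper and 3.85 ± 0.25 in the lower flank at 6 h (SD, n = 3). Its upper arrays were all below 0 h, and its lower arrays overlapped the 0 h array of 3.81. Os01g44110 is described as like BAK1, the co-receptor of brassinosteroid, and is placed among the receptor-like cytoplasmic kinases in the study's categories. Its 2 member probe sets differed 3.01-fold and 2.58-fold between the flanks, and on both the upper arrays overlapped 0 h. Another probe set of the gene was 1.37 above 0 h in the lower flank but only -0.09 in the upper.

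The remaining described genes were single members of their groups. A sodium/hydrogen exchanger (Os07g47100), of a family that moves cations across membranes against protons, measured 2.93 ± 0.07 at 0 h, 2.20 ± 0.22 in the upper and 3.68 ± 0.31 in the lower flank at 6 h (SD, n = 3), with all groups apart and nearly equal steps of 0.75 and -0.73. A RING-H2 finger gene (ATL2C, Os02g54830), of a family of ubiquitin ligases, differed 2.35-fold, and its upper arrays overlapped 0 h. HGA6 (Os12g13640), described by name alone, differed 2.67-fold with both flanks clear of 0 h.

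ACR8 (Os08g02500) is named after an Arabidopsis family of proteins with ACT domains, which bind amino acids. Its signals were 2.68, 2.03 and 2.20 at 0 h, at 0.5 h 2.53, 1.81 and 1.98 in the upper and 2.07, 1.99 and 2.24 in the lower flank, and at 6 h 1.46, 0.96 and 0.37 in the upper and 3.74, 2.72 and 2.55 in the lower flank. The upper flank was below 0 h on every array, while the lowest lower array, at 2.55, fell within the range of 0 h.

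No described function stood behind 14 of the 32 targets, on 15 probe sets, and 4 of these targets (5 probe sets) have neither a locus nor a gene ID in the sources used here and are called by the sequence cluster of the array's design. This group held the 2 members with the highest flank differences. Os04g56390 (LOC4337271) read 4.84, 4.63 and 4.83 at 0 h, at 0.5 h 4.80, 4.64 and 4.82 in the upper and 5.10, 4.76 and 4.88 in the lower flank, and at 6 h 3.48, 2.68 and 2.48 in the upper and 6.46, 6.11 and 5.69 in the lower flank. Both flanks at 6 h lay outside the range of every earlier array, 9.26-fold apart, with the upper flank 3.69-fold below and the lower 2.51-fold above 0 h.

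LOC4339041 read 3.58, 3.92 and 3.33 at 0 h, at 0.5 h 4.03, 4.0 and 3.83 in the upper and 4.29, 4.30 and 3.88 in the lower flank, and at 6 h 2.44, 2.62 and 1.99 in the upper and 5.41, 5.84 and 5.21 in the lower flank. Its flanks were 8.79-fold apart, and the gap of 2.59 between the lowest lower and the highest upper array was the widest of the set. LOC4337166 read 6.20, 6.21 and 6.92 at 0 h, at 0.5 h 6.42, 6.97 and 7.23 in the upper and 6.40, 6.79 and 6.83 in the lower flank, and at 6 h 5.23, 5.65 and 5.20 in the upper and 7.58, 7.86 and 7.53 in the lower flank. Here too neither flank at 6 h overlapped 0 h, at a 4.91-fold difference.

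Os04g58734 read 3.04, 3.19 and 3.72 at 0 h, at 0.5 h 2.92, 2.92 and 3.19 in the upper and 3.15, 3.35 and 3.09 in the lower flank, and at 6 h 2.04, 1.85 and 1.54 in the upper and 3.88, 4.20 and 4.01 in the lower flank. The upper side carried most of its 4.66-fold difference, at -1.51 against 0.71. The unnamed transcript Os.23188 was similar, with 5.12, 5.23 and 5.55 at 0 h, at 0.5 h 5.04, 5.33 and 5.30 in the upper and 5.14, 5.29 and 5.42 in the lower flank, and at 6 h 4.22, 4.21 and 3.76 in the upper and 5.89, 5.96 and 5.64 in the lower flank. Its groups at 6 h were clear of 0 h, by 0.53 in the lower and -1.23 in the upper flank on average.

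The unnamed transcript OsAffx.16482 had 2 member probe sets that followed each other closely. On the first, the signals were 5.52, 4.25 and 4.72 at 0 h, at 0.5 h 5.06, 3.98 and 4.07 in the upper and 5.09, 4.33 and 4.55 in the lower flank, and at 6 h 4.38, 3.10 and 3.21 in the upper and 6.20, 5.26 and 5.09 in the lower flank. On the second they were 4.84, 3.91 and 4.13 at 0 h, at 0.5 h 4.52, 3.57 and 3.66 in the upper and 4.58, 3.93 and 4.11 in the lower flank, and at 6 h 3.82, 3.03 and 2.44 in the upper and 5.61, 4.78 and 4.75 in the lower flank. Replicate 1 was the highest of its group throughout in both, so the arrays of 0 h overlapped the lower flank in both and the upper flank in the first, while each replicate number taken alone showed the same order of the 3 groups.

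The other targets without a described function differed 2.35-fold to 3.27-fold between the flanks at 6 h. Os01g12000 (LOC4324639) lay mostly above 0 h (1.21 in the lower and -0.50 in the upper flank), as did the unnamed Os.26088 (1.08 and -0.54). Os12g38320 (0.62 and -1.01) and Os03g46300 (0.52 and -0.84) lay mostly below. Os01g43950 (0.91 and -0.61), Os.18355 (0.76 and -0.53) and Os01g04390 (0.66 and -0.58) were nearer to balance. Os12g05210 stood at 0.76 and -0.62 from a 0 h mean that again depended on replicate 2 (1.27, 3.24 and 1.74), and it left the set without that array, without replicate 1 of 0 h or without replicate 1 of the 6 h upper flank. Another probe set of Os12g05210 read -0.35 at 0 h, below the array median. It stood at 1.31 in the lower and -0.19 in the upper flank, with overlapping flank arrays.

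**Figure D3:**
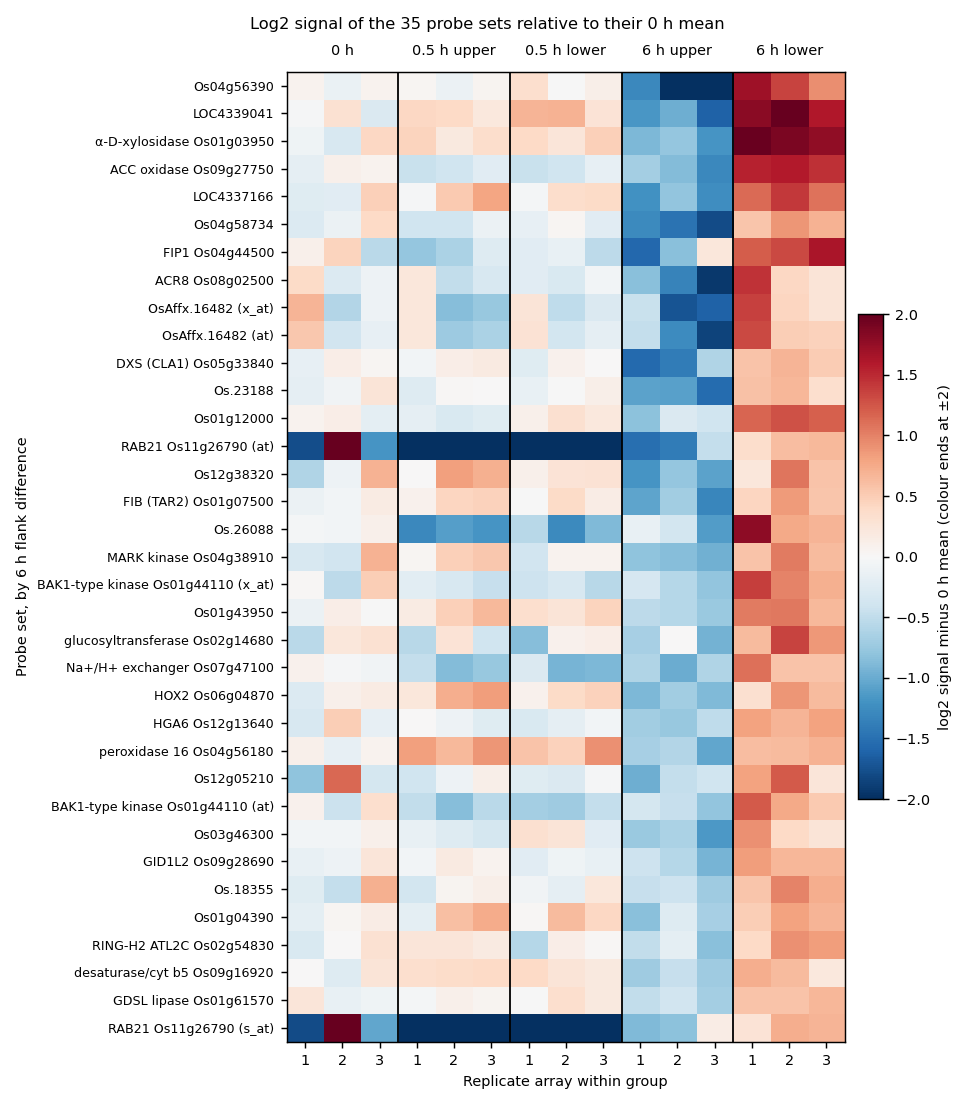
Log2 signal minus the 0 h mean of the same probe set (colour, ending at -2 and 2) for the 35 members in rows, ordered by the flank difference at 6 h, on the 15 arrays in columns by group and replicate. The 6 h upper flank is blue and the 6 h lower flank red in nearly every row, the 0.5 h columns are pale except in a few rows, and the single dark red 0 h cells are replicate 2 of RAB21.

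The arrays of 0.5 h were not used to choose the set and could be tested. All 35 members passed the filter for the brightest 50% of probe sets, and lower was compared with upper flank in a limma fit over 28629 probe sets. Calls were made at an adjusted p (Benjamini-Hochberg) under 0.05, and no member was called, where 2 of all probe sets tested were (0.00699%). At an unadjusted p under 0.05 in limma, 1 of 35 members (2.86%) passed, against 3.2% of all probe sets, a share near the background. It was higher in the lower flank, as were 1.15% of all probe sets, and no member passed in the other direction, against 2.05%. An alternative limma fit, the replicate block, used the 12 flank arrays alone and held a term for each upper and lower pair of equal time and replicate number. It passed 4 members, against 9.7% of all probe sets, 2 higher and 2 lower in the lower flank, and again called no member.

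Os01g12000 was that 1 member. It read 4.51, 4.57 and 4.24 at 0 h, at 0.5 h 4.26, 4.14 and 4.20 in the upper and 4.54, 4.77 and 4.66 in the lower flank, and at 6 h 3.62, 4.15 and 4.05 in the upper and 5.60, 5.71 and 5.63 in the lower flank. All 3 lower arrays at 0.5 h were above all 3 upper arrays, an order seen in no other member and in 2.99% of probe sets tested. Its lower minus upper difference at 0.5 h was 0.46 (SE 0.14, 95% interval 0.15 to 0.77, unadjusted p = 0.00721, adjusted p = 0.992 in limma). Over 22 alternative fits the difference was 0.40 to 0.68 and the adjusted p 0.49 to 1. The other 3 that passed with the block were Os03g46300 (0.37), HOX2 (-0.29) and MARK (-0.43).

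Across the set, the flank difference at 0.5 h was small and went both ways. It ran from -0.43 to 0.46, with a median of -0.005 against -0.08 over all probe sets tested. In the lower flank the mean was higher for 17 of 35 members (48.6%), against 33.5% of all probe sets. Without centring of the arrays this was 29 of 35 (82.9%), against 80.7% of all probe sets, and the median of all probe sets moved from -0.08 to 0.14, so both the count and its distance from the background depend on the scaling. The most negative differences were those of MARK (-0.43), ATL2C (-0.36) and the first RAB21 probe set (-0.33, 95% interval -2.36 to 1.69). The order with all 3 upper above all 3 lower arrays was seen in 2 members, GID1L2 and ATL2C, against 7.12% of probe sets tested.

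The 95% intervals of the limma fit bounded what the 0.5 h arrays could have missed. For 30 of 35 members the interval at 0.5 h excluded a difference of 1, and for 33 it excluded the difference the same member had at 6 h. In every member the 0.5 h difference was nearer to 0 than to its 6 h difference. Where it had the direction of the 6 h difference, it was at most 27.5% of that difference. The 2 members whose intervals did not exclude their 6 h difference were both RAB21 probe sets. Because the rule chose the 6 h differences and their own spread was not counted, these comparisons with 6 h are a description and no test. By pairs of equal replicate number, the median difference over the members was 0.05, -0.05 and 0.02 at 0.5 h, with 20, 15 and 18 of 35 above 0. All 3 pairs were below 0 at 0.5 h in 8 members, against 31.3% of probe sets tested. All 3 were above 0 in 8 members, but the share of all probe sets with that order was not counted. The equal counts therefore cannot be read as a balance between the directions. At 6 h the median difference by pair was 1.67, 1.59 and 1.59, and all 35 were above 0 in each pair, as the rule required.

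**Figure D4:**
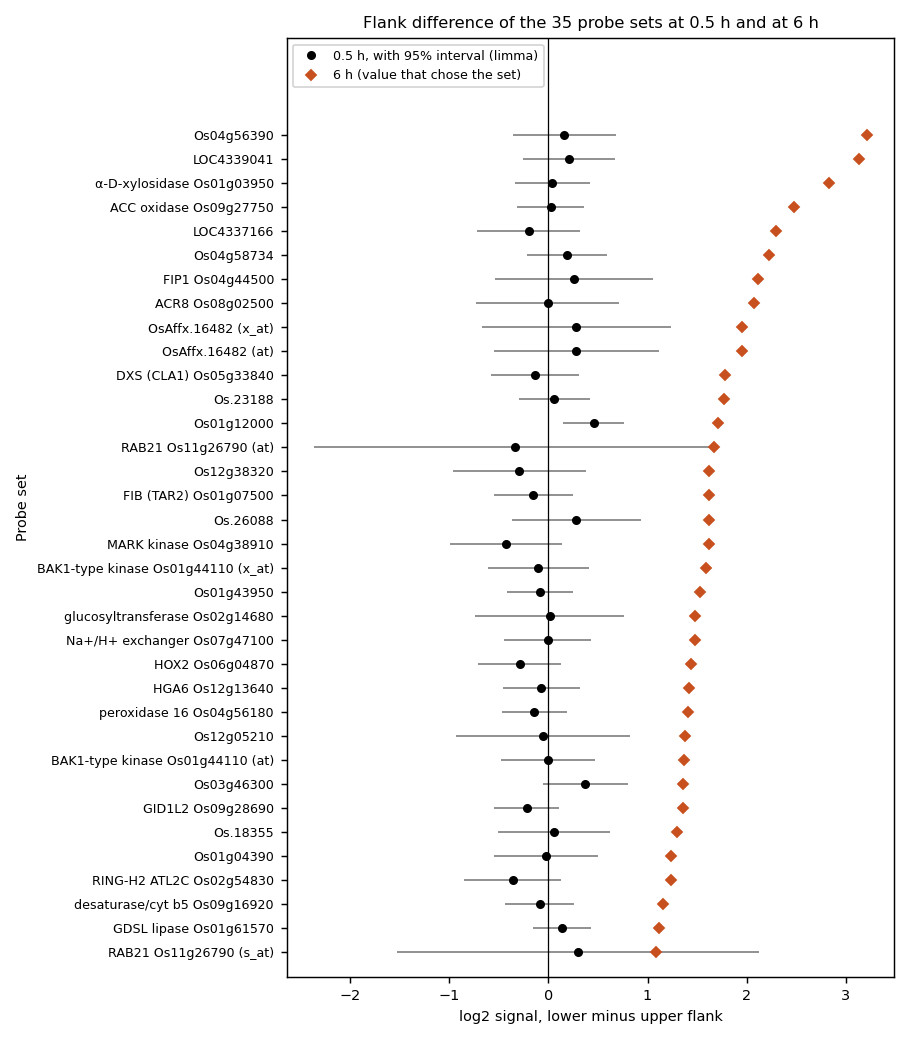
Lower minus upper flank difference in log2 signal (horizontal axis) for the 35 members, at 0.5 h (black points, with the 95% interval of the limma fit as grey lines) and at 6 h (orange diamonds, the values that chose the set). The 0.5 h points lie between -0.43 and 0.46 and the 6 h diamonds between 1.08 and 3.21.

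Sets that passed the limit on one side only are given for comparison at 0.5 h. Of 170 probe sets at least 0.5 above 0 h in the 6 h lower flank alone, chosen with the same other limits, 38.8% had the higher mean on the lower side at 0.5 h, with a median of -0.06. Of 512 at least 0.5 below 0 h in the upper flank alone, 38.3% were, with a median of -0.04. None of either set was called in limma, and 4 and 14 passed at an unadjusted p under 0.05. These shares lay between that of the members and that of all probe sets, and their difference from the members was not tested. The reverse pattern, below 0 h in the lower and above it in the upper flank, was found in 5 probe sets.

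Differences between 0.5 h and 0 h share the 0 h arrays with the rule and are given without a test. The mean of both flanks at 0.5 h was within 0.5 of 0 h for 29 members (82.9%), a share near that of all probe sets tested (86.2%). It was 0.5 or more below 0 h in 5 (8.92% of all probe sets tested), which were both RAB21 probe sets (-3.04 and -2.50), Os.26088 (-1.05), the sodium/hydrogen exchanger (-0.70) and the probe set of the BAK1-like kinase with the smaller flank difference (-0.62). In these 5 all 6 arrays of 0.5 h lay below all 3 of 0 h, against 8.73% of all probe sets. All 6 lay above 0 h in 2 members, peroxidase 16 (0.72) and Os01g43950 (0.39), against 3.29%.

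Members varied together only in part once the group means had been taken away. The correlation of such deviations over the 15 arrays had a median of 0.11 over all pairs of members, with the middle 50% between -0.24 and 0.46. The points share 5 group means and the array centring. The 2 probe sets of RAB21 (0.95) and of OsAffx.16482 (0.95) headed the order, followed by ACR8 with OsAffx.16482 (0.91) and MARK with Os.18355 (0.91). The HOX2 deviations were most like those of Os01g04390 (0.87) and Os12g38320 (0.87). In HOX2, Os01g04390 and Os12g38320 replicate 1 was the lowest of its group in all 5 groups. In both OsAffx.16482 probe sets it was the highest in all 5. The part of this offset of replicate 1 in the correlations was not tested. By their names, 5 members may match more than 1 transcript: 1 each for Os04g58734, OsAffx.16482, Os.26088, Os01g44110 and RAB21.

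Genes of 5 hormone pathways were looked up beside the members, 95 genes by symbol with the brightest probe set of each, of which 80 were tested. None met the numeric limits of the set on that probe set, and none was called at 0.5 h in limma. In ethylene (11 genes), the receptor ETR2 stood above 0 h in both flanks (1.15 in the lower and 1.24 in the upper). ACS1, too dim to be tested, stood at 3.73 in the lower and -0.09 in the upper flank from a 0 h mean of -1.54. In brassinosteroid (12 genes), BU1, a regulator of leaf bending, stood at 4.03 and 1.02, and CPD2, of brassinosteroid synthesis, at -1.69 and 0.21. Among 29 cytokinin genes, LOG, which activates cytokinin, stood at 0.43 and -0.92 from a 0 h mean of 1.67, short of the limits on the level and on the lower side. In gibberellin none of the 4 tested genes was 0.5 below 0 h in the upper flank, and EUI, which was too dim to be tested, stood at -0.51. Of 30 tested jasmonate genes 11 were at least 0.5 below 0 h in the upper flank, and all 11 were so in the lower flank too. Of these 30, LOX3 was the 1 that stood at least 0.5 above 0 h in the lower flank (1.09), and it was above 0 h in the upper flank too (1.93). At an unadjusted p under 0.05 at 0.5 h in limma 2 of the 80 passed, CYP734A6 (-0.37), whose enzyme inactivates brassinosteroid, and LOGL7 (0.36).

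By position, 28 targets could be placed on chromosomes, by the locus name where there was one and otherwise through the gene table of the ASM3414082v1 assembly. The 17905 genes set beside them were placed through that gene table alone. Chromosome 1 held 7 of the 28 targets (25% against 14.8% of 17905 genes placed) and chromosome 4 held 6 (21.4% against 8.76%). Chromosomes 9 and 12 held 3 each, and chromosome 10 none. The closest members were Os04g56390 and peroxidase 16 with 14 genes between them, followed by the α-D-xylosidase gene and Os01g04390 with 32, and the ACC oxidase gene and GID1L2 with 69. No test of this spread was made.

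Members near the limits show how fine the boundary was. On the lower side, the last inside were Os03g46300 (0.52), Os09g16920 (0.52) and Os.23188 (0.53), and the first outside were Os04g31670 (0.49), a glucan endo-1,3-beta-glucosidase gene at Os01g14140 (0.49) and a blue copper protein gene at Os01g17470 (0.48). On the upper side, Os01g12000 (-0.50), ATL2C (-0.51) and the GDSL lipase (-0.52) were just inside. Just outside were a pathogenesis-related protein gene at Os11g47670 (-0.49), Os08g16030 (-0.49) and an L-ascorbate oxidase homolog at Os06g46500 (-0.47). For the level at 0 h, the glucosyltransferase Os02g14680 (2.07), Os12g05210 (2.08) and ACR8 (2.30) were inside, and a DNA binding protein gene at Os10g26410 (1.95), an unnamed probe set (1.86) and the RF2b gene at Os01g11350 (1.69) were outside. The order of the flank arrays removed no probe set, and the smallest gaps it left were those of the second RAB21 probe set (0.14), ATL2C (0.60) and Os02g14680 (0.63).

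Membership of 24 probe sets rested on single arrays and that of 11 did not. Leaving out each of the 9 arrays of 0 h and 6 h in turn, 11 members met the rule every time: Os04g56390, LOC4339041, the α-D-xylosidase, ACC oxidase, LOC4337166, Os04g58734, DXS, MARK, Os01g43950, the sodium/hydrogen exchanger and peroxidase 16. Between 25 and 34 members met it in any one of these, and the fewest, 25, did so without replicate 1 or replicate 2 of 0 h. Of the 11, 10 also met the rule with quantile scaling, with 75th percentile scaling and without centring. Os01g43950 did not with the 75th percentile. Within replicate 1 alone, MARK and Os01g43950 did not meet the rule. Under limits of 0.75 on each side, 6 probe sets passed, namely the 5 with the highest flank differences and the second OsAffx.16482 probe set.

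The arrays differed in ways that the groups do not explain. DapX, a labelling control, had a linear signal (5′ probe set) of 106.6 to 209 in replicate 1 of the 5 groups, compared with 16.5 to 26.3 in the 10 remaining arrays. Array medians were 22.8 to 29.6 and 17.2 to 23, respectively. Replicate 1 was the highest of its group in all 5 groups for 3 members (4.7% of probe sets tested) and the lowest for 3 (16.4%). Within replicate 1 alone 21 members met the rule, within replicates 2 and 3 alone 26 did, and 16 did in both. Among RNA controls, the 5′ probe set of actin was 0.99 higher in the lower than in the upper flank at 6 h (3′ probe set 0.54), that of GAPDH 0.62 (0.05), that of cyclophilin 0.50 (0.43) and that of ubiquitin 0.01 (-0.09). Actin, cyclophilin and the 5′ and middle (0.42) probe sets of GAPDH were thus higher in the lower flank, as the members were. Unlike the members, they stood below 0 h in both flanks at 6 h. The 5′ probe set of actin, for instance, read 4.98 at 0 h, 4.47 in the lower and 3.49 in the upper flank. Probe sets of ubiquitin and the 3′ probe set of GAPDH differed by -0.09 to 0.05. At 0.5 h the 5′ and middle probe sets of GAPDH were 0.84 and 0.39 higher in the lower flank (3′ probe set -0.05). Those of actin, cyclophilin and ubiquitin differed by -0.19 to 0.21 at that time. The part of these controls in the members' differences was not tested at either time.

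Marker genes of tissues the shoot base could hold were looked up on their brightest probe set. Levels of different probe sets cannot be set against each other, and detection calls were not used, so the levels do not settle which tissues were present. The 4 meristem genes matched read 0.85 to 7.28 at 0 h. OSH1, OSH71 and OSH6 differed by -0.17, -0.21 and 0.11 between the flanks at 6 h, while OSH43 was 1.76 higher in the lower flank. The 2 root genes, QHB and SCR1, read 1.39 and 1.47 and differed by -0.10 and -0.19. The 4 epidermal genes, ROC1, ROC2, ROC3 and ROC5, read 1.34 to 5.51 and differed by -0.22 to 0.10. The 12 vascular probe sets read -1.19 to 8.13 and differed by -0.42 to 0.69, the highest being 1 of the 2 probe sets matched as HB1. Since 1 probe set was taken for each gene, these 2 may stand for different genes, and which of them is vascular was not settled. Of 3 green leaf genes, CAB2R and RBCS differed by -0.18 and -0.46, and RBCS1 was 1.92 higher in the lower flank on a signal below the array median. The part of OSH43, HB1 and RBCS1 in the members' differences was not tested. Fewer cells of a type and less RNA per cell cannot be told apart in such pools.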

How the data were processed

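With the GCOS software (MAS5 per the labels), the authors made the deposited linear signal intensities, 1 for each probe set on each array, from RNA that was amplified in repeated rounds and labelled with biotin. The scaling target is not stated in the sources read. The authors centred signals per chip and per gene before their own tests, a step the deposited intensities do not show. Here signals were taken to log2 and centred on each array's median. The rule was applied to means of 3 arrays. For the 0.5 h flanks, 28629 non-control probe sets (the 50% with the highest mean over all 15 arrays) were compared in limma 3.58.1 (R 4.3.3) by a model holding a mean for each group (residual degrees of freedom 10) and Benjamini-Hochberg adjustment. Nothing says more of the replicates than that they are biological, so p-values measure the spread between these pools, and their number limits the precision.

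Members and lists were chosen with earlier results of these data known. All 35 members also stand in a list of 6 h flank differences that the study made from these samples. Genes were named through the array's annotation (22436 probe sets with 1 gene, 95 with several and 34727 with none) and the study's locus and category columns, which were used for names alone. Named are members with a symbol or description in the order of the 6 h difference, those at an unadjusted p under 0.05 or with the 3 most negative differences at 0.5 h, and the 3 nearest each limit; the class II homeobox and auxin synthesis genes were added after their values had been seen.

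Whether upper and lower samples of equal number pair was checked within each time. Their deviations from group means correlated across probe sets at 0.50, 0.22 and 0.24 at 0.5 h and at 0.48, 0.26 and 0.41 at 6 h. All were above the limit of 0.1 set for pairing. At 0.5 h, however, upper replicate 2 correlated with lower replicate 3 (0.21) nearly as closely as with lower replicate 2 (0.22). The main limma fit held no term for pairs, so its p-values and intervals leave the pairing out. Pairing entered limma only through the alternative fit with the replicate block. That fit left the 0 h arrays out, held a term for each pair at each time and had 4 residual degrees of freedom. Its value is given where it moved a count. Detection calls and sequences were not used here.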

Additional observations from a re-analysis of the deposited data

Results flagged for a closer look

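In 8 members the lower minus upper difference was below 0 in all 3 pairs at 0.5 h and above 0 in all 3 at 6 h. They are MARK (-0.43 at 0.5 h on the log2 scale, on average), the ATL2C gene (Os02g54830, -0.36), HOX2 (-0.29), the gene described as the gibberellin receptor GID1L2 (Os09g28690, -0.22), LOC4337166 (-0.20), FIB (-0.15), DXS (-0.13) and 1 probe set of the BAK1-like kinase (Os01g44110, -0.10). Of all probe sets tested, 31.3% had all 3 pairs below 0 at that time. In GID1L2 and ATL2C all 3 upper arrays were also above all 3 lower arrays, an order found in 7.12% of probe sets. The count of 8 depended on the scaling: 5 of them had all 3 pairs below 0 with quantile scaling, 4 with the 75th percentile and 2, MARK and HOX2, without centring. The difference between the times was not tested, since the 6 h values chose the members, and none of the 8 passed at an unadjusted p under 0.05 in limma at 0.5 h. With the replicate block, HOX2 and MARK did.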

How the results depend on the processing

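The number of members was 35. It was 64 with limits of 0.4 and 6 with limits of 0.75, and without 1 array it was 29 to 49. Quantile scaling gave 36 (25 of them members), the 75th percentile 42 (22), no centring 38 (31), a 0 h level of 1 gave 41 and of 3 gave 29. No member was called at 0.5 h in any of 22 alternative limma fits. At an unadjusted p under 0.05 in limma the count was 1, with the replicate block 4, and 1 to 2 without 1 array. It was 2 without replicate 3 of 0 h (adding MARK), replicate 1 of the 0.5 h upper flank (adding HOX2), replicate 3 of the 0.5 h lower flank or replicate 1 of the 6 h lower flank (both adding Os03g46300). Of the other calls the block changed none. At 0.5 h the members higher in the lower flank numbered 17, 29 without centring, and 13 to 19 without 1 array. Their median difference was -0.005, and 0.0523 with quantile scaling, 0.0633 with the 75th percentile, 0.21 without centring, -0.0546 to 0.0466 without 1 array, and 0.0533 in replicate 1 alone. The last and the fits by 1 probe set per target (15 of 32 higher) and by replicates 2 and 3 (median 0.04) were chosen after seeing the data. Of 455 values of single members under alternatives, 403 stayed within the replicate spread and 52 moved beyond it, 22 of the latter without centring. Signals near the array median and 3 arrays per group limit what could be seen at 0.5 h.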
